A study of Mus musculus with 6 samples.

Results

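Chromatin is called bivalent where trimethylated histone H3 lysine 4 (H3K4me3) and trimethylated lysine 27 (H3K27me3) are found at the same place. H3K4me3 marks active and poised promoters and is written by MLL and SET1 complexes. H3K27me3 is written by Polycomb repressive complex 2 and marks silenced or poised genes, many of them developmental regulators. During T cell development some such sites are known to lose 1 of the marks as lineage programmes are chosen.

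The 570 regions described here carried peaks of both marks in Sox13hi γδ thymocytes and an H3K4me3 peak without an H3K27me3 peak in Sox13lo γδ thymocytes. They were found by merging overlapping peaks of the 4 histone peak lists on chromosomes 1 to 19, which gave 37017 regions. Of these, 13617 had an H3K4me3 peak in both populations. Within that number 1803 regions were bivalent in both populations, 10902 had H3K4me3 alone in both, and 342 were the mirror case, bivalent in Sox13lo with H3K4me3 alone in Sox13hi. The 570 regions are called Sox13hi-bivalent regions below. They were chosen by the presence or absence of peaks in the 4 histone lists, so their histone values are a description and not a test.

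The cells were thymic γδ T cell precursors, sorted for γδ and for CD24, a surface protein of immature thymocytes. All mice were of strain C57BL/6 with the genotype TCRbeta KO.Sox13 ECFP KI/+, so both populations lack the T cell receptor β gene and have cyan fluorescent protein (CFP) knocked in at 1 of the Sox13 alleles. Sox13hi cells were sorted as CFPhi and Sox13lo cells as CFPlo/-, a gate that also takes in CFP-negative cells. SOX13, an HMG-box transcription factor of early γδ T cells, was mapped in Sox13hi cells from 1000000 cells, and each histone mark in both populations from 250000 cells. There was 1 library per group, so differences between the populations have no replicate check, and p-values are not given. The age of the animals, the number pooled and the depth of sequencing are not stated in the sources at hand. Gene positions in build mm9 were not used here, so regions are named by position, and marker genes of the cell type were not checked. In these bulk samples a mark present in fewer cells and a weaker mark in every cell cannot be told apart, and neither can both marks on 1 allele and each mark in different cells.

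The H3K27me3 lists differed in length, and this entered the number of regions found. On chromosomes 1 to 19 there were 14483 H3K27me3 peaks in Sox13hi and 7268 in Sox13lo, a ratio of 1.99. The H3K4me3 lists were closer in length, with 19924 and 17954 peaks. As deposited, the 570 Sox13hi-bivalent regions stood against 342 mirror regions, a ratio of 1.67. Of the regions with H3K4me3 in both populations and no H3K27me3 in Sox13lo, 4.97% held H3K27me3 in Sox13hi, against a mirror share of 3.04%.

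With both H3K27me3 lists limited to the 7268 highest-scoring peaks, 443 of the 570 regions remained (77.7%). All 443 regions found in this way overlapped one of the 570. At the same time the mirror regions increased to 427, a gain of 85, because regions whose Sox13hi H3K27me3 peak was removed then counted as lacking it. The ratio was 1.04 and the shares were 3.86% and 3.73%. Equal lists gave nearly equal numbers in both directions, with a difference of 16 regions where the deposited lists had 228. Regions bivalent in both populations count on both sides, so this difference is that of the totals bivalent in each population. With H3K4me3 in both, these totals were 2160 in Sox13hi and 2144 in Sox13lo, against 2373 and 2145 as deposited. The cut acts on these totals directly, so near equality is partly built in and is not a separate result.

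Shorter common lists gave ratios between 1.02 and 1.18. With 3000 peaks in each list there were 435 Sox13hi-bivalent and 368 mirror regions, the largest ratio. With 5000 peaks the numbers were 437 and 420. The number of Sox13hi-bivalent regions lay between 432 and 443 at every common length from 3000 peaks upward, while regions bivalent in both populations increased with length. These are not the same regions throughout, because a cut of the Sox13lo list also removes matches. With 1000 peaks in each list there were 308 Sox13hi-bivalent and 283 mirror regions, but 45 of the 308 belonged to the 570, and the other 263 were regions outside the set as found in the full lists. At 3000 peaks 239 of the 435 belonged to the 570, and at 5000 peaks 365 of the 437.

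**Figure D1:**
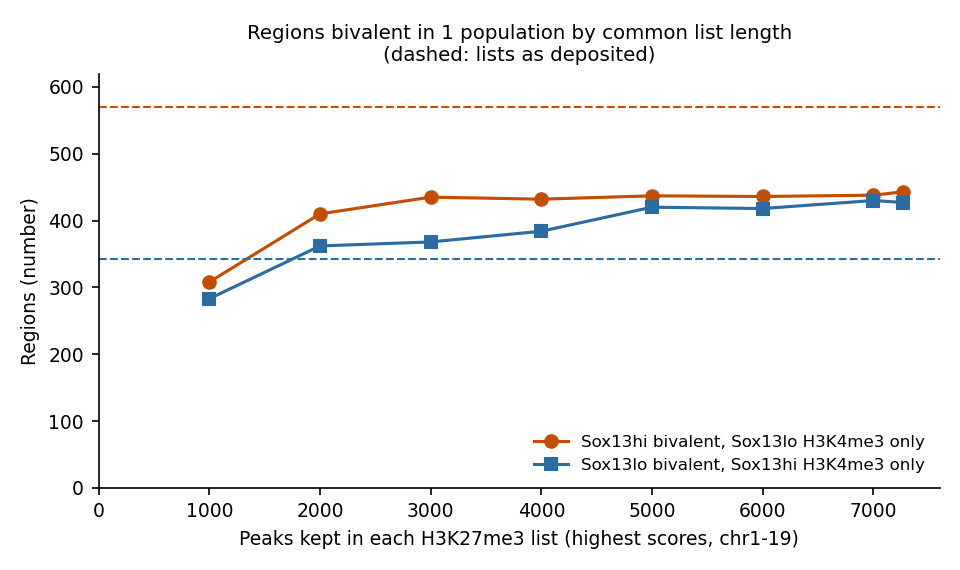
Number of regions bivalent in Sox13hi with H3K4me3 only in Sox13lo (circles) and of mirror regions (squares) against the number of highest-scoring peaks kept in each H3K27me3 list. Dashed lines mark the 570 and 342 regions of the lists as deposited, and the points at 7268 peaks lie at 443 and 427 regions.

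The H3K27me3 peaks of the Sox13hi-bivalent regions were of middle to high rank in their own list. The score is the authors' value for a peak and was used to rank peaks within a list only. The best Sox13hi H3K27me3 score of a region had a median of 29.0, with quartiles of 16.6 and 47.1 and a range of 3.25 to 857. Its median rank was 25.2% from the top of the list. In regions bivalent in both populations the median score in the same list was 63.5, 8.60% from the top. The highest decile of the Sox13hi list held 86 of the 570 regions (15.1%), against 1001 of the 1803 regions bivalent in both (55.5%). The ninth decile held the largest number of Sox13hi-bivalent regions, 149. In the shorter Sox13lo list the median rank of mirror regions was 41.9% from the top, against 17.7% for regions bivalent in both. The highest decile of that list held 5.56% of mirror regions and 33.4% of regions bivalent in both. A rank below that of regions bivalent in both was thus not particular to the Sox13hi-bivalent regions.

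Absence of a Sox13lo H3K27me3 peak was commonest where the Sox13hi peak was weak. Among the 2373 regions bivalent in Sox13hi with H3K4me3 in Sox13lo, 24.0% (22.3 to 25.8%) lacked the Sox13lo H3K27me3 peak. In the lowest decile of these regions by Sox13hi H3K27me3 score 58.8% lacked it (52.3 to 65.1%), in the fifth 23.9% (18.7 to 29.9%) and in the highest 1.26% (0.261 to 3.64%). The mirror share was 15.9% (14.4 to 17.6%) of 2145 regions bivalent in Sox13lo, with 38.6% in the lowest and 0.930% in the highest decile. At equal list length the total shares were 20.5% (18.8 to 22.3%) and 19.9% (18.2 to 21.7%). The 1717 regions then bivalent in both populations entered both totals, so the intervals of these shares do not compare them. These intervals treat regions as independent and cover counting error only. Score and absence both come from the histone lists that chose the regions, so the shares by decile are a description and not a test.

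**Figure D2:**
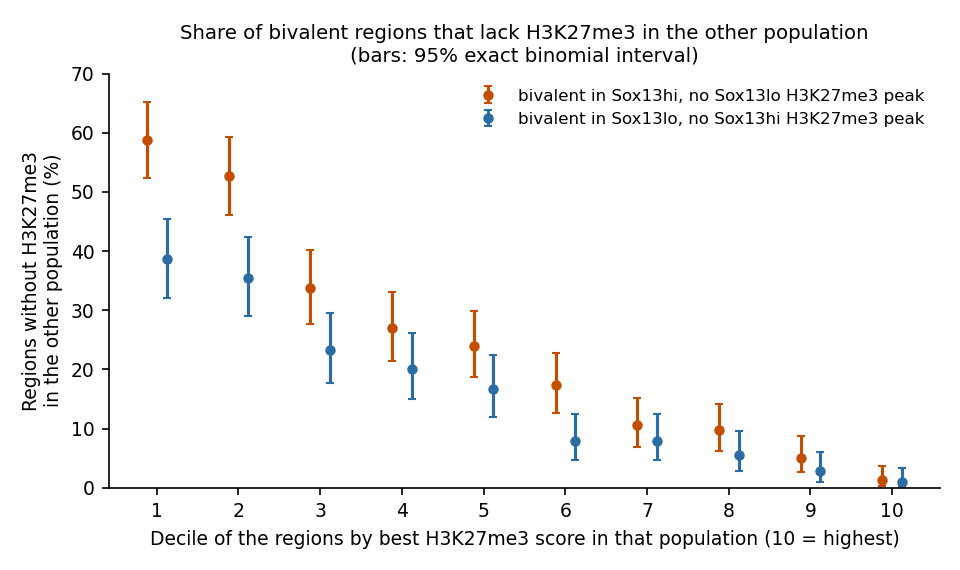
Share of bivalent regions without an H3K27me3 peak in the other population (y axis, per cent) by decile of the best H3K27me3 score in the population where they are bivalent, for lists as deposited. Bars are 95% exact binomial intervals for counting error only, and the shares are a description. The share in Sox13hi is 58.8% at decile 1 and 1.26% at decile 10, and the mirror share is 38.6% and 0.930% at those deciles.

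A single region stood far above the others in H3K27me3 score. It lies on chromosome 6, 40841651 to 40842249, with a Sox13hi H3K27me3 score of 857, the second highest of the list. Its H3K4me3 score was 80.5 in Sox13hi, rank 5164, and 23.8 in Sox13lo, rank 12744. The H3K27me3 peak and the H3K4me3 peak of Sox13hi both covered all 600 bp. It also had the highest SOX13 score of the 570 regions, 222, where the median of the 52 regions with SOX13 was 10.1. The nearest Sox13lo H3K27me3 peak was 139 kb away. The input library was not analysed here, so enrichment without an antibody was not examined at this site.

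The next 9 regions by Sox13hi H3K27me3 score had scores from 142 to 116. The region on chromosome 2, 119062801 to 119063949, had an H3K27me3 score of 142 over 900 bp, and its H3K4me3 scores were 37.5 in Sox13hi and 91.0 in Sox13lo. On chromosome 10, 58275051 to 58276749, the H3K27me3 score was 138 over 1250 bp. Both were at least 5 kb from the nearest Sox13lo H3K27me3 peak, at 32.8 kb and 5.10 kb.

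Several of the highest-scoring regions lay beside a Sox13lo H3K27me3 peak that did not reach into them. The region on chromosome 15, 88978051 to 88980199, with a score of 130, had one 2.45 kb away. The region on chromosome 14, 57722751 to 57723749, with a score of 127, had one 400 bp away. For the region on chromosome 7, 25965601 to 25966599, with a score of 122, the distance was 500 bp, and its H3K4me3 peaks were among the weaker of the set, with scores of 10 in Sox13hi and 11.3 in Sox13lo. On chromosome 15, 79346301 to 79347749, with a score of 117, the gap was 50 bp, the smallest step of the peak grid. The region on chromosome 7, 148464551 to 148465399, with a score of 116, lay 2.55 kb from a Sox13lo peak.

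The remaining regions of the top 10 had strong H3K4me3 in both populations. On chromosome 9, 77502701 to 77503899, the H3K27me3 score was 120, and the H3K4me3 scores were 127 in Sox13hi and 184 in Sox13lo, ranks 2215 and 1659. This region held 2 SOX13 peaks, the higher with a score of 11.8. On chromosome 19, 46423001 to 46424099, the H3K27me3 score was 116 and the H3K4me3 ranks were 2706 and 2197. Sox13lo H3K27me3 peaks were 64.6 kb and 21.8 kb from these regions.

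Neighbouring Sox13lo H3K27me3 was found near many members of the set. A Sox13lo H3K27me3 peak lay within 1 kb of 79 of the 570 regions (13.9%, 11.1 to 17.0%), and 8 of these adjoined such a peak with no gap. Within 5 kb there was one for 119 regions (20.9%, 17.6 to 24.4%) and within 50 kb for 239 (41.9%). The 5 kb share depended on how regions were built. It was 6.89% where peaks up to 1 kb apart were joined. That setting leaves out any region with a Sox13lo H3K27me3 peak within 1 kb, which lowers the share by construction. For the upper 50% of every histone list it was 37.8%, measured to the full Sox13lo list. There a region that overlapped a Sox13lo peak removed by the cut also counted. Regions with H3K4me3 alone in both populations, which also lack Sox13lo H3K27me3, had such a peak within 1 kb in 1.15% and within 5 kb in 3.24% of cases. Mirror regions had a peak of the longer Sox13hi H3K27me3 list within 1 kb in 26.0% and within 5 kb in 42.4% of cases, so a neighbouring peak of the other population was not particular to the Sox13hi-bivalent regions. For 331 of the 570 regions no Sox13lo H3K27me3 peak was within 50 kb. The 119 regions with a Sox13lo peak within 5 kb had a median Sox13hi H3K27me3 score of 39.5, and the other 451 had one of 27.3.

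Other Sox13hi H3K27me3 peaks were near as well. Apart from its own, a Sox13hi H3K27me3 peak lay within 5 kb of 34.4% (30.5 to 38.4%) of the Sox13hi-bivalent regions. The share was 56.1% (53.8 to 58.4%) for regions bivalent in both populations and 7.03% (6.55 to 7.52%) for regions with H3K4me3 alone in both. The Sox13hi-bivalent regions themselves were scattered. Of the 570, 42 (7.37%) lay within 50 kb of another, and the median distance to the nearest other one was 0.810 Mb. Of the 1803 regions bivalent in both, 27.6% had another of their kind within 50 kb, and that class has more regions.

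Inside the regions H3K27me3 was shorter than H3K4me3 at the median, and its highest-scoring peak lay within an H3K4me3 peak in most cases. H3K27me3 covered a median of 350 bp and H3K4me3 a median of 950 bp in Sox13hi, and the H3K27me3 length was 40.0% of the H3K4me3 length at the median. In regions bivalent in both populations H3K27me3 covered 750 bp in Sox13hi, 76.0% of the H3K4me3 length. The highest-scoring H3K27me3 peak lay entirely inside an H3K4me3 peak in 324 of the 570 regions (56.8%, 52.7 to 61.0%). It overlapped the H3K4me3 peak in part in 201 (35.3%), spanned it whole in 19 (3.33%) and did not touch it in 26 (4.56%). In regions bivalent in both, 41.8% had the Sox13hi H3K27me3 peak inside and 12.3% had it spanning H3K4me3. In mirror regions, measured with the Sox13lo marks, 56.4% had the H3K27me3 peak inside and 9.06% had it spanning H3K4me3. There H3K27me3 covered a median of 350 bp and H3K4me3 a median of 700 bp. A short H3K27me3 peak inside H3K4me3 was thus not particular to the Sox13hi-bivalent regions.

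Counting all H3K27me3 peaks of a region, the marks touched in Sox13hi in 549 of 570 (96.3%). In the other 21 regions the Sox13hi H3K27me3 peak overlapped the Sox13lo H3K4me3 peak and not the Sox13hi one. Those 21 regions are thus joined through the H3K4me3 peak of the other population. The H3K4me3 peaks of Sox13hi and Sox13lo overlapped each other in all 570. Regions were built from overlapping peaks, so touching marks are largely a result of the merging. Where peaks up to 1 kb apart were joined, the marks touched in Sox13hi in 68.8% (65.1 to 72.2%) of 682 regions.

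An H3K27me3 peak covered the midpoint of the H3K4me3 peak in 38.4% of the Sox13hi-bivalent regions, against 52.3% of mirror regions, measured with the Sox13lo marks, and 65.6% of regions bivalent in both, measured with the Sox13hi marks. At 500 bp from the midpoint the shares were 18.8%, 15.1% and 39.1%. The midpoint of the H3K27me3 peak was a median of 250 bp from that of the H3K4me3 peak, with quartiles of 125 and 425 bp. It was 175 bp away in mirror regions and 225 bp away, with quartiles of 100 and 400 bp, for Sox13hi marks at regions bivalent in both. By this measure the Sox13hi-bivalent regions were thus close to regions bivalent in both, whose H3K27me3 peaks were wider. The H3K4me3 peaks of the mirror regions were narrower, with a median of 700 bp in Sox13lo, and the part of width in the midpoint cover and the offsets was not tested.

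**Figure D3:**
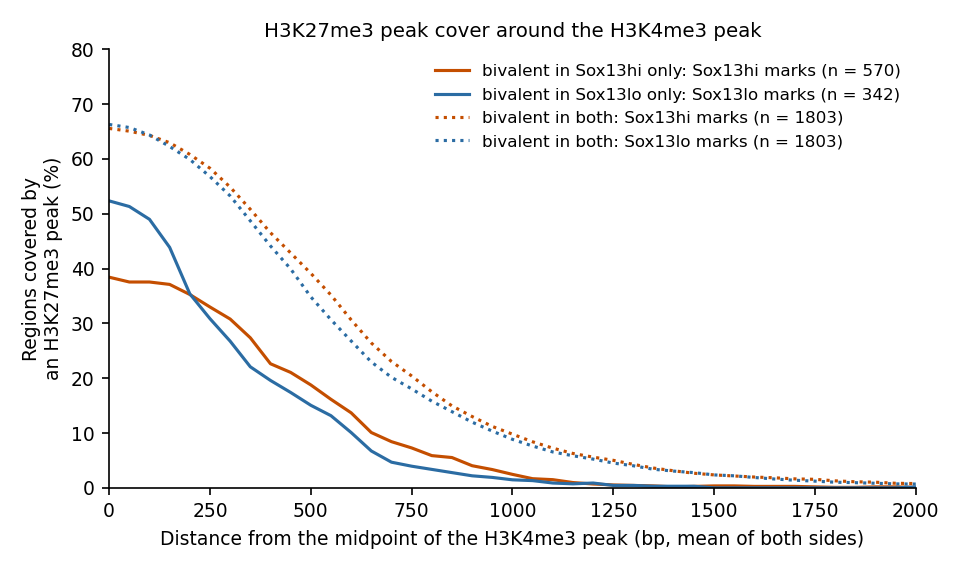
Share of regions covered by an H3K27me3 peak (y axis, per cent) against distance from the midpoint of the H3K4me3 peak (x axis, bp, mean of both sides), with both marks from the population named in the legend. At the midpoint the lines start at 38.4% for the 570 Sox13hi-bivalent regions, 52.3% for the 342 mirror regions and 65.6% for Sox13hi marks at the 1803 regions bivalent in both.

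The H3K4me3 peaks differed little in width between the populations. They covered a median of 950 bp in Sox13hi and 900 bp in Sox13lo, and the median log2 ratio of Sox13hi to Sox13lo width was 0.04, with quartiles of -0.13 and 0.30. H3K4me3 was wider in Sox13hi in 293 regions (51.4%), wider in Sox13lo in 205 (36.0%) and of equal width in 72. The mirror regions also had the wider H3K4me3 in Sox13hi, in 60.2% of cases, with a median log2 ratio of 0.13, and regions bivalent in both had 61.3% and 0.13. In regions with H3K4me3 alone in both, 45.2% were wider in Sox13hi and the median log2 ratio was 0. The H3K4me3 width therefore did not lean in opposite directions in the Sox13hi-bivalent and the mirror regions.

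The H3K4me3 score of the regions was in the middle of its list. The median of the best score was 43.4 in Sox13hi, 45.2% from the top, and 61.6 in Sox13lo, 48.6% from the top. Regions with H3K4me3 alone in both populations ranked higher, at 31.3% and 34.1%. Of all regions with H3K4me3 in both populations, 4.19% were Sox13hi-bivalent. By decile of Sox13hi H3K4me3 score this share was 5.07% in the lowest, 6.98% in the third and 1.84% in the highest decile. Across the 570 regions the Sox13hi and Sox13lo H3K4me3 scores had a Spearman rho of 0.89. The H3K27me3 score did not follow the Sox13hi H3K4me3 score (rho -0.004) or the region width (rho -0.02). In the 1803 regions bivalent in both, the rho values with H3K27me3 score were 0.29 and 0.45. In mirror regions the Sox13lo H3K27me3 score had a rho of -0.02 with the Sox13lo H3K4me3 score and -0.008 with the Sox13hi one. A rho near 0 between the scores of the marks was thus not particular to the Sox13hi-bivalent regions. These are descriptions across sites of the same libraries.

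The widest regions were broad H3K4me3 domains with a small H3K27me3 peak. The widest, on chromosome 11, 70465401 to 70469949, was 4550 bp wide and had H3K4me3 over 4300 bp in Sox13hi and 4250 bp in Sox13lo, ranks 61 and 56. Its H3K27me3 peak was 150 bp wide with a score of 8.75, rank 10567, and it was not kept at equal list length. On chromosome 11, 102177751 to 102181899, an H3K27me3 peak of 300 bp with a score of 20.8 lay at the edge of an H3K4me3 domain of 3950 bp. The region on chromosome 1, 16093751 to 16096599, had an H3K27me3 peak of 400 bp, score 50.8, within 2800 bp of H3K4me3, and a SOX13 peak of score 7.75. On chromosome 6, 31166101 to 31168799, the H3K27me3 peak had 300 bp and a score of 27.5.

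The second widest region was of another kind. On chromosome 4, 48057151 to 48061399, H3K27me3 covered 2500 bp in Sox13hi, the longest extent of the set, with a best score of 111. H3K4me3 covered 2500 bp in Sox13hi and 3150 bp in Sox13lo. The nearest Sox13lo H3K27me3 peak was 481 kb away.

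The boundary of the set ran through weak peaks. At the equal-length limit the last regions kept had H3K27me3 scores of 15.0, on chromosome 6, 131297501 to 131298499 and 49163401 to 49165649, and on chromosome 19, 53215851 to 53216749. The first not kept had scores of 14.8 on chromosome 7, 51037901 to 51038499, and on chromosome 9, 88494251 to 88494949, and 14.5 on chromosome 10, 80402151 to 80402899. The score at the limit, 14.8, was shared by 90 Sox13hi peaks. Just outside the set were regions bivalent in both populations through the weakest of Sox13lo H3K27me3 peaks. These were on chromosome 5, 118604751 to 118605799, with a Sox13lo score of 4.0, on chromosome 12, 113959901 to 113961599, with 4.25, and on chromosome 3, 30498501 to 30499199, with 4.5. Each Sox13lo peak was 100 bp wide, while the Sox13hi H3K27me3 scores there were 50.3, 48.3 and 42.0. The 127 regions not kept at equal length had a median H3K27me3 score of 10, against 37.0 for the 443 kept. Their median H3K4me3 scores were 51.5 against 41.5 in Sox13hi, and 73.8 against 59.5 in Sox13lo.

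SOX13 was not used to choose the regions, and it can be compared between classes. A SOX13 peak overlapped 52 of the 570 Sox13hi-bivalent regions (9.12%, 6.89 to 11.8%). The share was 10.2% of all regions with H3K4me3 in both populations and 6.20% of all 37017 merged regions. Regions bivalent in both populations held SOX13 in 236 of 1803 cases (13.1%, 11.6 to 14.7%). The Sox13hi-bivalent regions were lower by 3.97 percentage points, with a Newcombe-type interval of the difference from -6.74 to -0.894. Against regions with H3K4me3 alone in both (9.77%, 9.22 to 10.3%) the difference was -0.646 points (-2.95 to 2.08), and 0 lies within its interval. Against mirror regions, with SOX13 at 35 of 342 (10.2%, 7.23 to 13.9%), it was -1.11 points (-5.44 to 2.91). Neither interval shows that the classes are alike, only that a difference was not detectable with these numbers of regions.

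Region width differed between the classes compared. The median width was 1100 bp for Sox13hi-bivalent regions, 1300 bp for regions bivalent in both, 1100 bp for regions with H3K4me3 alone and 925 bp for mirror regions. Within width classes the Sox13hi-bivalent regions again held SOX13 less often than regions bivalent in both, but each interval of the difference included 0. Under 800 bp the shares were 8.46% and 11.7%, a difference of -3.26 points (-10.9 to 4.52). From 800 to 1400 bp they were 9.06% and 10.9%, a difference of -1.82 points (-5.54 to 2.49). Over 1400 bp they were 9.86% and 16.1%, a difference of -6.24 points (-11.5 to 0.406). All SOX13 peaks at regions bivalent in both are at sites called in all 5 lists, where enrichment without an antibody was not examined.

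**Figure D4:**
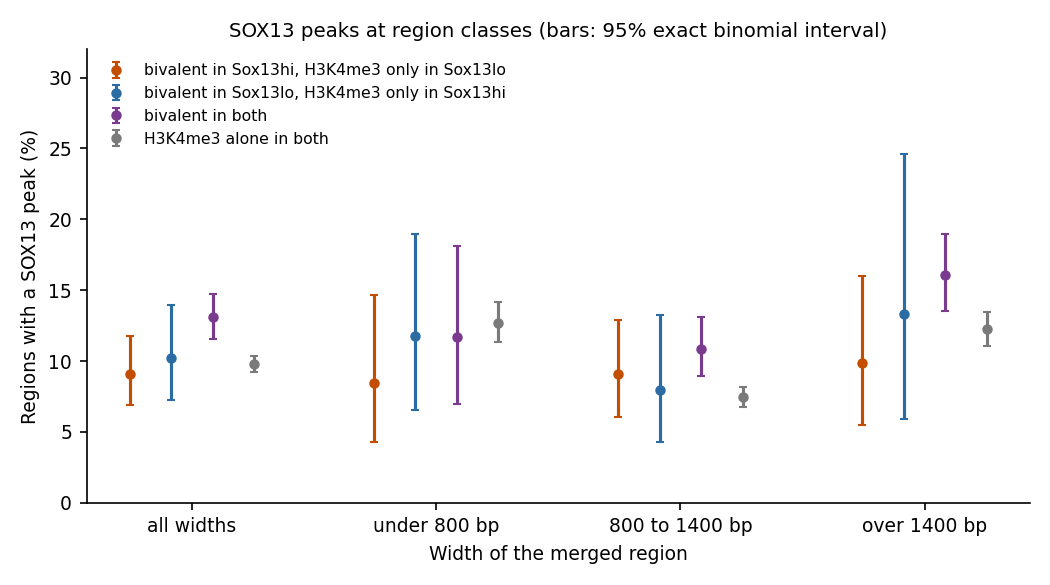
Share of regions with a SOX13 peak (y axis, per cent) for 4 classes of regions with H3K4me3 in both populations, over all widths and in 3 width classes. Bars are 95% exact binomial intervals for counting error only. The Sox13hi-bivalent regions lie between 8.46% and 9.86% in all width classes, and regions bivalent in both reach 16.1% over 1400 bp.

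SOX13 was found at close shares of regions with stronger and with weaker Sox13hi H3K27me3, with a wide interval for the weaker. It was at 40 of the 443 regions kept at equal list length (9.03%, 6.53 to 12.1%) and at 12 of the 127 not kept (9.45%, 4.98 to 15.9%). It was at 9.24% of regions with a Sox13lo H3K27me3 peak within 5 kb and at 9.09% of the others. In 51 of the 52 regions the SOX13 peak lay on the Sox13hi H3K4me3 peak, and in 37 of them it lay on the H3K27me3 peak as well. In no region did SOX13 lie on the H3K27me3 peak without the H3K4me3 peak. Sox13hi H3K4me3 covered a median of 950 bp, where the median region width was 1100 bp, so most of a region is H3K4me3 by construction. These counts were not set against another class and do not show a preference of SOX13 for either mark. Beyond the regions themselves, a SOX13 peak was within 5 kb of 16.3% (13.4 to 19.6%) of Sox13hi-bivalent regions and of 17.2% (16.5 to 17.9%) of regions with H3K4me3 alone in both.

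After the chromosome 6 site, the highest SOX13 scores of the set were between 27.3 and 42.5. On chromosome 12, 56639301 to 56639949, the SOX13 score was 42.5, with an H3K27me3 score of 58.5 over 250 bp and H3K4me3 over 650 bp in Sox13hi and 600 bp in Sox13lo. The region on chromosome 10, 79824901 to 79825799, had a SOX13 score of 34.3 and an H3K27me3 score of 87.0. The regions on chromosome 2, 36061201 to 36061899, and on chromosome 4, 138633401 to 138634049, had SOX13 scores of 30.5 and 27.3 and H3K27me3 scores of 60 and 42.3. These regions were narrow, between 650 and 900 bp. For the last 3 of them a Sox13lo H3K27me3 peak was within 5 kb, at 3.85, 2.85 and 1.60 kb, and for the chromosome 12 region it was 59.95 kb away.

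The balance between the 2 directions is described here by chromosome, and a difference between chromosomes was not tested. As deposited, Sox13hi-bivalent regions outnumbered mirror regions on 17 of 19 chromosomes, the exceptions being chromosome 7 with 30 against 38 and chromosome 8 with 13 against 16. At equal list length they were more numerous on 13 chromosomes and fewer on 6. Chromosome 7 then had 20 Sox13hi-bivalent and 47 mirror regions, so that 29.9% (19.3 to 42.3%) of its regions bivalent in 1 population were Sox13hi-bivalent. On the other chromosomes this share was 52.7% (49.2 to 56.2%). Chromosome 8 had 11 against 22 and chromosome 11 had 28 against 39, while chromosome 14 had 21 against 10. The intervals of this share were 18.0 to 51.8%, 29.8 to 54.5% and 48.6 to 83.3% there, and each included equal numbers in both directions. In the lists as deposited, Sox13hi-bivalent regions were 1.75% (0.935 to 2.97%) of regions with H3K4me3 in both populations on chromosome 8. On chromosome 18 they were 5.82% (3.68 to 8.68%). The chromosomes named were chosen from all 19 after their values were seen, so their intervals do not test a difference. The ratio of Sox13hi to Sox13lo H3K27me3 list length was 1.62 on chromosome 11, 1.69 on chromosome 7, 1.93 on chromosome 8 and 2.45 on chromosome 14. Chromosome 16 had a ratio of 2.43 with 13 against 16 regions, and chromosome 13 a ratio of 1.88 with 20 against 15. Whether the balance follows the ratio of list lengths was not tested.

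**Figure D5:**
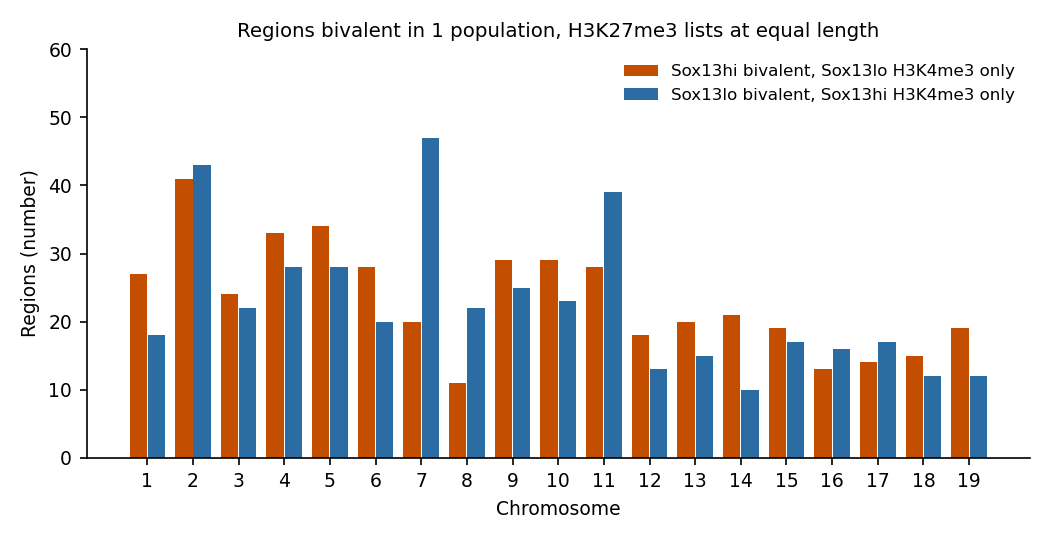
Number of Sox13hi-bivalent regions (left bars) and mirror regions (right bars) on each chromosome, with both H3K27me3 lists at 7268 peaks. Chromosome 7 has 20 and 47 regions, chromosome 8 has 11 and 22, and chromosome 14 has 21 and 10.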

How the data were processed

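For each ChIP library the authors deposited 1 peak list, which gives the position of a peak and its score. All deposited scores lie close to multiples of 0.25, and how they were computed is not stated in the sources at hand, nor are the aligner, the caller and the thresholds. Coordinates are on mm9, as the submitters' processing notes name it. Peaks lie on a 50 bp grid and end 1 bp short of it. Widths count that last base, starts are printed counting from 1, and ends are as deposited.

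Peaks of the 4 histone lists on chromosomes 1 to 19 were merged where they overlapped by at least 1 bp, and each region was classed by the lists in it. Shares carry 95% exact (Clopper-Pearson) intervals, and differences of shares carry Newcombe-type intervals built from them. All cover counting error only. The members and lists were chosen with earlier results of these data known. Regions were named as the 10 with the highest Sox13hi H3K27me3 score, the 5 with the highest SOX13 score, the 5 widest, and the 3 nearest on each side of the equal-length limit and outside the rule. Genes and sequence need mm9 and were not analysed here. Class counts were checked against bedtools 2.31.1, and the merging was tested on simulated data. Python 3.11.15, NumPy 2.4.6, pandas 2.3.3, SciPy 1.17.1 and matplotlib 3.10.9 were used.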

Additional observations from a re-analysis of the deposited data

How the results depend on the processing

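No paired analysis was possible because there was a single library for every group, which also left no replicate to omit. Of 9 alternatives, the number of Sox13hi-bivalent regions moved by over 1.5 times in the top 50% of each histone list by score, with 291 regions. Cutting the Sox13lo list there also redefines which regions lack its peak. Settings added after seeing the data also lowered it. There were 308 regions with 1000 peaks in each H3K27me3 list, of which 45 belonged to the 570, and 334 with equal lists, touching marks and no Sox13lo H3K27me3 peak within 5 kb together. SOX13 was at 8.68% of these 334. In the top 50% setting the SOX13 difference from regions bivalent in both was -4.59 points with an interval that includes 0 (-9.04 to 0.363), from fewer regions. That from regions with H3K4me3 alone in both turned to 1.67 points (-1.80 to 5.93). The interval against regions bivalent in both also included 0 within each width class, at -3.26, -1.82 and -6.24 points from narrow to wide. Sequencing depth is unknown, so it cannot be said whether a missing Sox13lo H3K27me3 peak was below detection.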

Other observations

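The sex chromosomes were outside the rule. On chromosome X, 10 regions were bivalent in Sox13hi with H3K4me3 alone in Sox13lo and 8 were the mirror case, beside 12 bivalent in both and 305 with H3K4me3 alone in both. None of the 10 held a SOX13 peak. With chromosome X included, SOX13 was at 1069 of 11207 regions with H3K4me3 alone in both, against 1065 of 10902 without it. For regions bivalent in both the counts were 245 of 1815 against 236 of 1803, and for mirror regions 36 of 350 against 35 of 342. These numbers on chromosome X are small, and a difference between classes was not tested. On chromosome Y there was 1 region bivalent in Sox13hi with H3K4me3 alone in Sox13lo, beside 7 mirror regions and 33 bivalent in both. It held SOX13, and SOX13 in the other classes of chromosome Y was not counted.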
